A study of Mus musculus with 16 samples.

Results

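Imprinted genes are expressed mainly from the allele of a single parent, and 8 of them that are read in neurons were followed here through the cells of the mouse dentate gyrus (DG). They were the noncoding RNAs Meg3, Rian and Mirg of the Dlk1-Dio3 domain, the noncoding RNAs Kcnq1ot1 and Snhg14, and the protein-coding genes Peg3, Ndn and Nnat. The members were found by their symbols among the gene rows of all 8 deposited matrices, and all 8 were present among 32285 genes. The nuclei came from microdissected DG of 4 wild-type mice (WT, labelled VV) and 4 mice homozygous for the V321L substitution in neuregulin 1 (V321L, labelled LL), with 2 females (F1, F2) and 2 males (M1, M2) in each genotype. The substitution lies in the membrane-spanning part of Nrg1, is carried by every cell of the animal and impairs the release of the intracellular domain that signals to the nucleus. The DG tissue was frozen, nuclei were isolated, and RNA and accessible chromatin were sequenced from the same nuclei as 1 Multiome library per mouse. The study's methods give a range for its animals as a whole, from the fourth week after birth to a year of age, and the sources used here do not say where in it these mice lay.

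In most imprinted domains a differentially methylated control region sets which parental copy is read, and a long noncoding RNA is often read from the opposite copy to the protein-coding genes. Meg3, Rian and Mirg lie in a row in the Dlk1-Dio3 domain and are read from the maternal copy, Rian as a host of small nucleolar RNAs and Mirg as a host of microRNAs. Snhg14 is a paternally read host of small nucleolar RNAs that runs antisense to Ube3a, and Kcnq1ot1 is a paternally read RNA antisense to Kcnq1 that silences its neighbours in cis. Ndn encodes Necdin, a MAGE family protein of postmitotic neurons, in the same domain as Snhg14. Peg3 encodes a large zinc finger protein, and Nnat encodes Neuronatin, a small protein of the endoplasmic reticulum membrane. Many of these genes are known for high expression in the brain.

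In the RefSeq annotation of GRCm38.p6, the assembly also named mm10 in the submitters' processing notes, Meg3 lies at chr12:109540996-109571729, Rian at chr12:109603945-109661716 and Mirg at chr12:109734981-109749458. On chromosome 7 lie Snhg14 at chr7:59272737-60450177, Ndn at chr7:62348277-62349928, Peg3 at chr7:6703892-6730462 and Kcnq1ot1 at chr7:143213111-143296547. Nnat lies at chr2:157560078-157562525. The 250 bases before an annotated start are shown for the 4 members whose start carried an accessible region in every library. Their accessibility is compared with their RNA below. For Peg3 the start used, chr7:6730419, lies within the span given above, so part of its window does too. Another annotated Meg3 start, chr12:109545398, had 0 CG dinucleotides in its window and is not shown. The letters are from RefSeq (GRCm38.p6), run 5′ to 3′ on the strand of the gene, and have each CG dinucleotide in capitals.

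The stretch before Meg3, chr12:109540746-109540995 on the plus strand, held 10 CG dinucleotides, 1 CCAAT and 2 overlapping TATAAA matches, 1 on each strand.
Meg3: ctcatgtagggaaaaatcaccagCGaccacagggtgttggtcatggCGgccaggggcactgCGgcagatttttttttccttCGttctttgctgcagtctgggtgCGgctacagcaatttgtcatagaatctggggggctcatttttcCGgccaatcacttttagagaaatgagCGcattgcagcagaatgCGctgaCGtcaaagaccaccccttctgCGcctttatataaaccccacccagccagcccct
The stretch before Kcnq1ot1, chr7:143296548-143296797 on the minus strand, held 5 CG dinucleotides and 3 CCAAT matches.
Kcnq1ot1: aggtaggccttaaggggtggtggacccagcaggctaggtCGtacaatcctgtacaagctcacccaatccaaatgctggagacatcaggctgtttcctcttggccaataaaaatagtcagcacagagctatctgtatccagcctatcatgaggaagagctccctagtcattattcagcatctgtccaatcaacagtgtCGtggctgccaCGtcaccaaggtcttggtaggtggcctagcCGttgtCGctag
The stretch before Peg3, chr7:6730420-6730669 on the minus strand, held 8 CG dinucleotides and 2 CCAAT matches.
Peg3: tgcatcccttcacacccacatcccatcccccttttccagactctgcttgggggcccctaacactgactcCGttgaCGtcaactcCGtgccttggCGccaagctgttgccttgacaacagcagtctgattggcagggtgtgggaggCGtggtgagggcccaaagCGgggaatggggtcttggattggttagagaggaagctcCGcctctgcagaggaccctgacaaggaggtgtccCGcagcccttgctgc
The stretch before Ndn, chr7:62348027-62348276 on the plus strand, held 5 CG dinucleotides and neither motif.
Ndn: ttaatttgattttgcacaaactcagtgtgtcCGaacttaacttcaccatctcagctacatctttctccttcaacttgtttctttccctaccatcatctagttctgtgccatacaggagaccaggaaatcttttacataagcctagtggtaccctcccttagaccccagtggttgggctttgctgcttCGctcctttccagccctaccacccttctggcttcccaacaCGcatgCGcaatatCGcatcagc

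Over the same window of 32851 promoters the median was 6 CG dinucleotides, 33.8% held CCAAT, 12.4% held TATAAA and 7.87% held no CG, both motifs being searched on both strands. The other members had 12 (Nnat), 10 (Mirg), 2 (Snhg14) and 0 (Rian) CG dinucleotides in this window. The letters are given as a description of the windows, and a match is not a site.

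Nuclei were assigned to 7 cell classes by marker genes that include none of the members. Of 16360 nuclei, 13559 were assigned, and 10230 of these were granule cells (GCs), the principal neurons of the DG. All 10 markers of each class were detected in that class, and 10008 of the GCs also fell in clusters named as GCs. The same marker lists gated the classes and named the clusters, so neither number checks the classes independently. Summed over WT GCs, all 10 markers of astrocytes and radial glia, of oligodendrocytes, of OPCs and of microglia were detected as well. Of 16201 distinct barcodes, 158 occurred in more than 1 library. The 2 sets of libraries stood apart: RNA unique molecular identifiers (UMIs) totalled between 4326426 and 14624265 per WT library and between 15505354 and 23582057 per V321L library. In GCs, the summed level of ribosomal protein mRNAs was 475 to 1150 CPM (UMIs scaled to a common library total) in WT and 8542 to 18300 CPM in V321L, and mitochondrial RNA was 1831 to 2794 CPM in WT and 4127 to 11638 CPM in V321L. Over all GCs the summed GC markers were at 9170 CPM in WT and 6385 CPM in V321L. Neither the ribosomal nor the mitochondrial range overlapped between the genotypes, so that genotype and library quality cannot be told apart in any comparison of WT with V321L below. Nrg1 itself was at 702 to 910 CPM in WT GCs and at 398 to 580 CPM in V321L GCs, with a log2 fold change of -1.09 (SE 0.16, adjusted p = 3.2e-05). The V321L substitution is not a deletion, so the level of Nrg1 does not check the labels.

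The members differed first by cell class. Across mice of both genotypes, 6 of the 8 members were higher in GABAergic neurons than in GCs in every mouse. By the test below, 5 of 8 were lower than in GCs in astrocytes and radial glia, 5 in oligodendrocytes, 3 in OPCs and 7 in microglia. Of 48 pairs of member and class, 12 were higher and 20 lower than in GCs by an exact sign-flip test within mice, adjusted over the 48 pairs. The smallest p that this test can give is 0.00781 with 8 mice. It was run on the members only, and the share of all genes that differ between these classes was not computed. The counts are therefore not read as particular to the members. A mouse without a UMI of a gene counts as lower, so for rare genes in glia the counts rest partly on the floor. Levels below are CPM and are compared between classes for the same gene only, since CPM does not correct for gene length.

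Meg3 was lowest among neurons in GCs. In WT mice it ranged from 360 to 619 CPM in GCs, from 2416 to 4257 CPM in GABAergic neurons and from 1795 to 2817 CPM in the other excitatory neurons, gated on markers of hippocampal excitatory neurons outside the granule layer. The 2 non-granule neuronal classes overlapped each other and both lay above GCs. Within mice, Meg3 was higher than in GCs by 2.85 on the log2(CPM + 1) scale in GABAergic neurons (SD 0.21, n = 8, higher in 8 of 8 mice, exact sign-flip adjusted p = 0.020) and by 2.36 in other excitatory neurons (SD 0.24, n = 8, 8 of 8 mice, exact sign-flip adjusted p = 0.020). In astrocytes and radial glia it was lower than in GCs in all 8 mice.

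Rian and Mirg, from the same domain, were also higher in both other neuronal classes than in GCs in all 8 mice. Rian ranged in WT mice from 168 to 203 CPM in GCs, 851 to 980 CPM in GABAergic neurons and 596 to 768 CPM in other excitatory neurons, 3 ranges that did not overlap. Mirg was rarer, at 16.1 to 17.8 CPM in WT GCs, 40.6 to 274 CPM in GABAergic neurons and 60.2 to 94.8 CPM in other excitatory neurons, the last 2 overlapping. The within-mouse difference between GABAergic neurons and GCs was 2.42 for Rian and 2.76 for Mirg on the log2(CPM + 1) scale. In astrocytes and radial glia Rian and Mirg were lower than in GCs in all 8 mice. For Mirg, 0 of 297 WT nuclei of this class held a UMI. Over these pooled nuclei that allows a share of up to 1.01%, by counting error only. A sum of 0 UMIs counts as lower, so the Mirg direction in WT mice lies at the floor.

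Snhg14 and Kcnq1ot1 were more even across neurons. Snhg14 ranged in WT mice from 906 to 1124 CPM in GCs, 1429 to 1736 CPM in GABAergic neurons and 1269 to 1521 CPM in other excitatory neurons. It was higher than in GCs in all 8 mice in both classes, by 0.63 and 0.51 on the log2(CPM + 1) scale. Kcnq1ot1 was higher by 0.47 in GABAergic neurons, again in all 8 mice, and did not pass the test in other excitatory neurons (0.06, SD 0.16, n = 8, exact sign-flip adjusted p = 0.40). In oligodendrocytes it was lower than in GCs in all 8 mice, with a mean difference of -0.77, and in OPCs the difference was -0.09 over 7 mice and did not pass.

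Peg3 was highest in GABAergic neurons, at 293 to 427 CPM in WT mice against 72.9 to 101 CPM in WT GCs, a within-mouse difference of 1.90 on the log2(CPM + 1) scale. In other excitatory neurons it was higher in 7 of 8 mice, by 0.53. In OPCs and in microglia Peg3 was lower than in GCs in all 7 mice with at least 10 such nuclei. In both classes it was at 0 CPM in each of the 3 WT mice, so the direction in WT lies at the floor. Of 47 pooled WT microglia 0 held a Peg3 UMI, which allows a share of up to 6.38%. Ndn was low in WT neurons. It ranged from 4.43 to 15.5 CPM in WT GCs and from 12.2 to 57.7 CPM in WT GABAergic neurons. Nnat lay between 7.44 and 12.8 CPM in WT GCs and overlapped between GCs and both other neuronal classes, where neither difference passed the test.

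**Figure D1:**
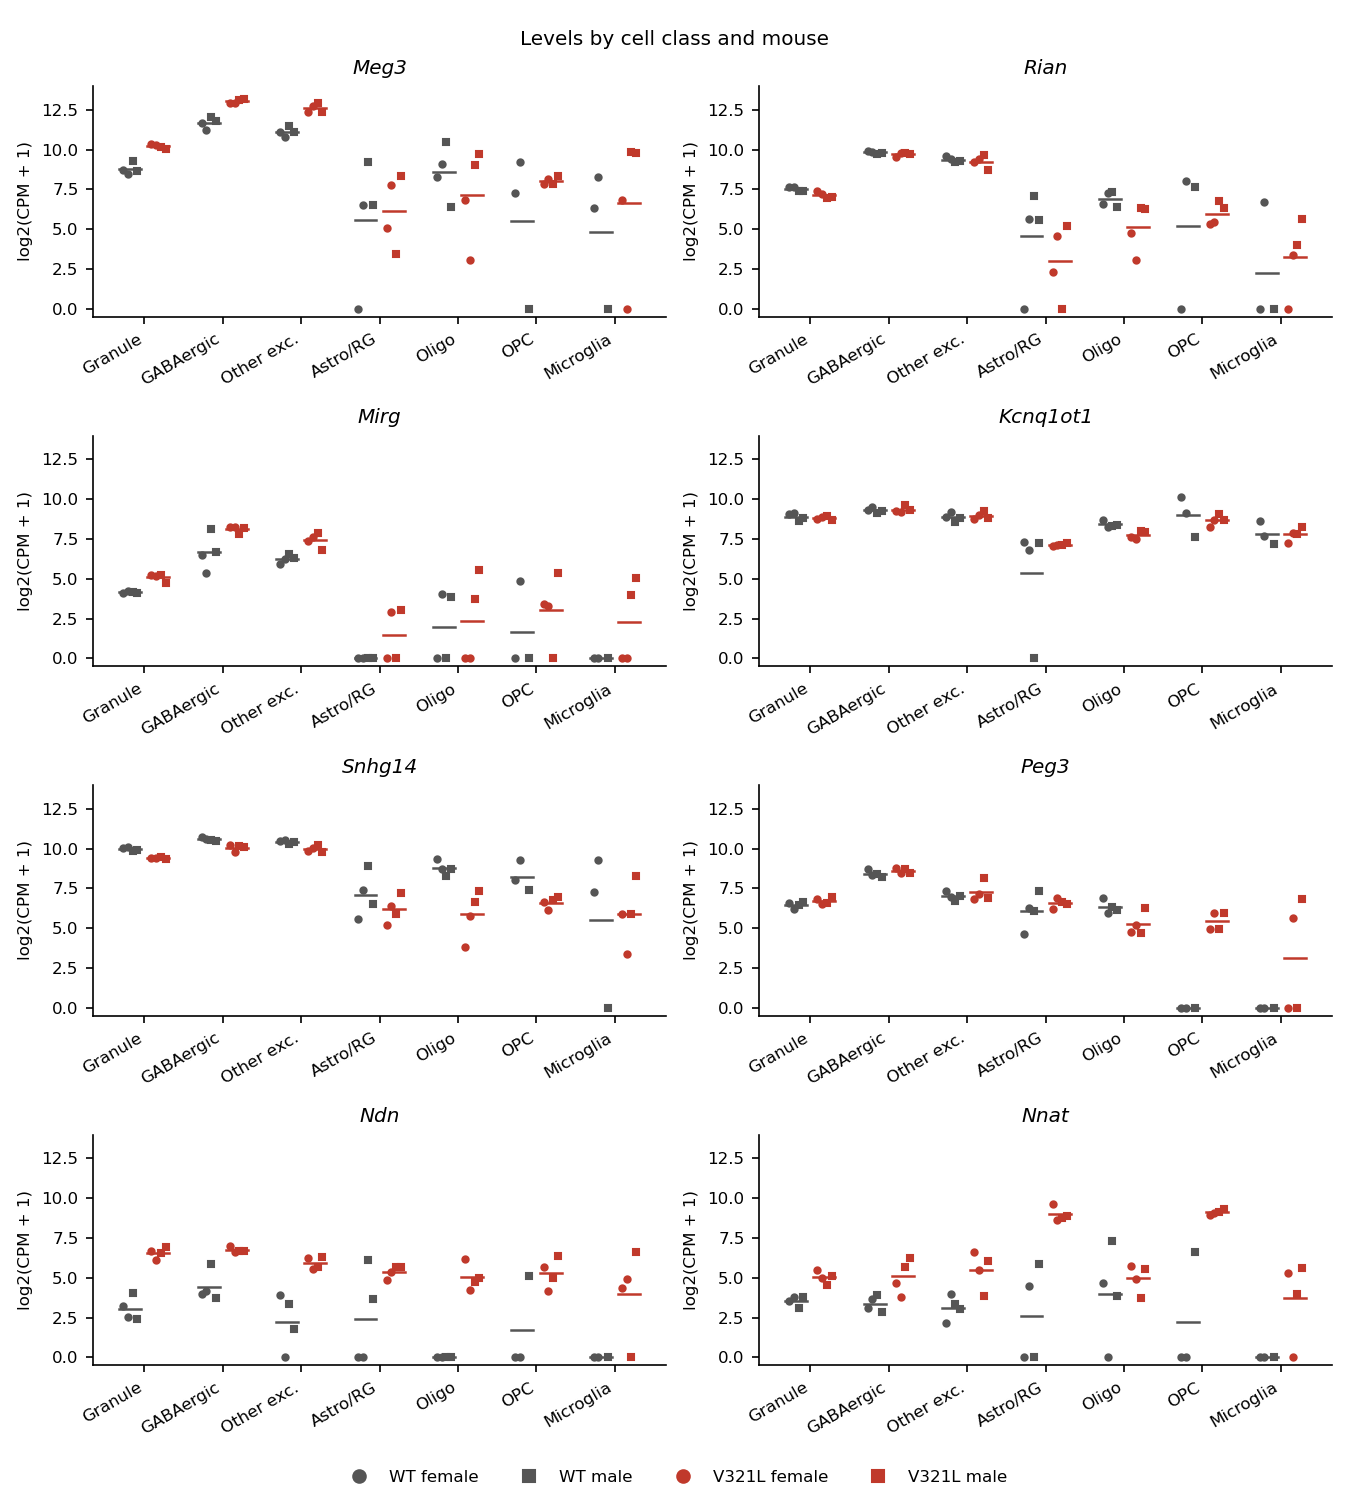
Level of each of the 8 genes in 7 cell classes, as log2(CPM + 1), with 1 point per mouse with at least 10 nuclei (WT grey, V321L red, circles females, squares males) and a line at the genotype mean. Meg3, Rian, Mirg and Peg3 sit higher in GABAergic neurons than in GCs, as in WT mice Meg3 at 2416 to 4257 CPM against 360 to 619 CPM.

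RNA that floats free of nuclei adds UMIs to every class. In barcodes with at most 100 UMIs, Meg3 made up 330 to 486 CPM in WT and 255 to 404 CPM in V321L libraries, and Snhg14 358 to 400 CPM in WT and 44.7 to 73.4 CPM in V321L libraries. Ndn, Nnat and Peg3 were lower in WT GCs than in the free RNA of every WT library, which held Ndn at 62.2 to 72.7 CPM, Nnat at 28.3 to 57.0 CPM and Peg3 at 119 to 227 CPM. In V321L GCs, Ndn (69.8 to 122 CPM) and Nnat (22.0 to 44.3 CPM) also lay below the free RNA of every V321L library. That RNA held Ndn at 208 to 235 CPM and Nnat at 67.1 to 133 CPM. Peg3, at 92.5 to 125 CPM in V321L GCs, lay above the 53.7 to 75.5 CPM of V321L free RNA. As an upper estimate from markers of other classes, free RNA gave 15.8% to 18.2% of the UMIs of GCs in WT and 3.86% to 13.6% in V321L mice. The same estimate was 2.58% to 8.76% in WT and 6.80% to 15.1% in V321L astrocytes and radial glia, and 12.2% to 77.2% in WT and 7.96% to 25.8% in V321L oligodendrocytes.

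The genes whose class pattern was closest to that of each member were ranked by the correlation of class means in WT mice over 7 classes, among 6405 genes. Rian and Mirg were closest to each other (Pearson r = 0.98). The genes closest to Meg3 were Frmpd3, Lin28b and Zfp385b, those closest to Snhg14 were Myh10, Dlgap2 and A330008L17Rik, and those closest to Kcnq1ot1 were Upp2, Sergef and Reep1. Peg3 was most like Far2, Rb1cc1 and Stmn3, Ndn most like Dicer1, Caskin1 and Taf1b, and Nnat most like Xrcc5, Ncam1 and Brca2. After each other, Rian was most like Herc1 and Epha3, and Mirg most like Epha3 and Gm38393. These 24 correlations lay between 0.955 and 0.994 and describe 7 class means that share libraries and, in glia, few UMIs.

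The comparison of WT with V321L was made within each class on UMIs summed per mouse. In GCs, 7 of the 8 members passed the test, 4 higher and 3 lower in V321L. This is to be read against all genes: 70.4% of 12328 genes tested were called between the genotypes in GCs, 38.6% higher and 31.8% lower, and the 7 of 8 members are to be read beside that share. The scaling also matters. With trimmed-mean (TMM) scaling the median gene had a log2 fold change of 0.11, and 4758 genes were called higher and 3925 lower. With plain library sizes the median was 0.56, and 6658 were called higher and 2194 lower. Fold changes below are from TMM scaling, and the value with library sizes is given where it turns the direction or loses the call. Whether the genotypes overlap was judged on CPM without the TMM factors, which were 0.773 to 1.05 in WT and 1.11 to 1.13 in V321L GCs. A verdict near the edge, as for Rian and Mirg in GCs, can therefore change with the scaling. The share of all genes whose levels do not overlap was not computed, so overlap is not read as a result about the members. Fewer cells of a kind and less RNA per cell cannot be told apart in summed counts.

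**Figure D2:**
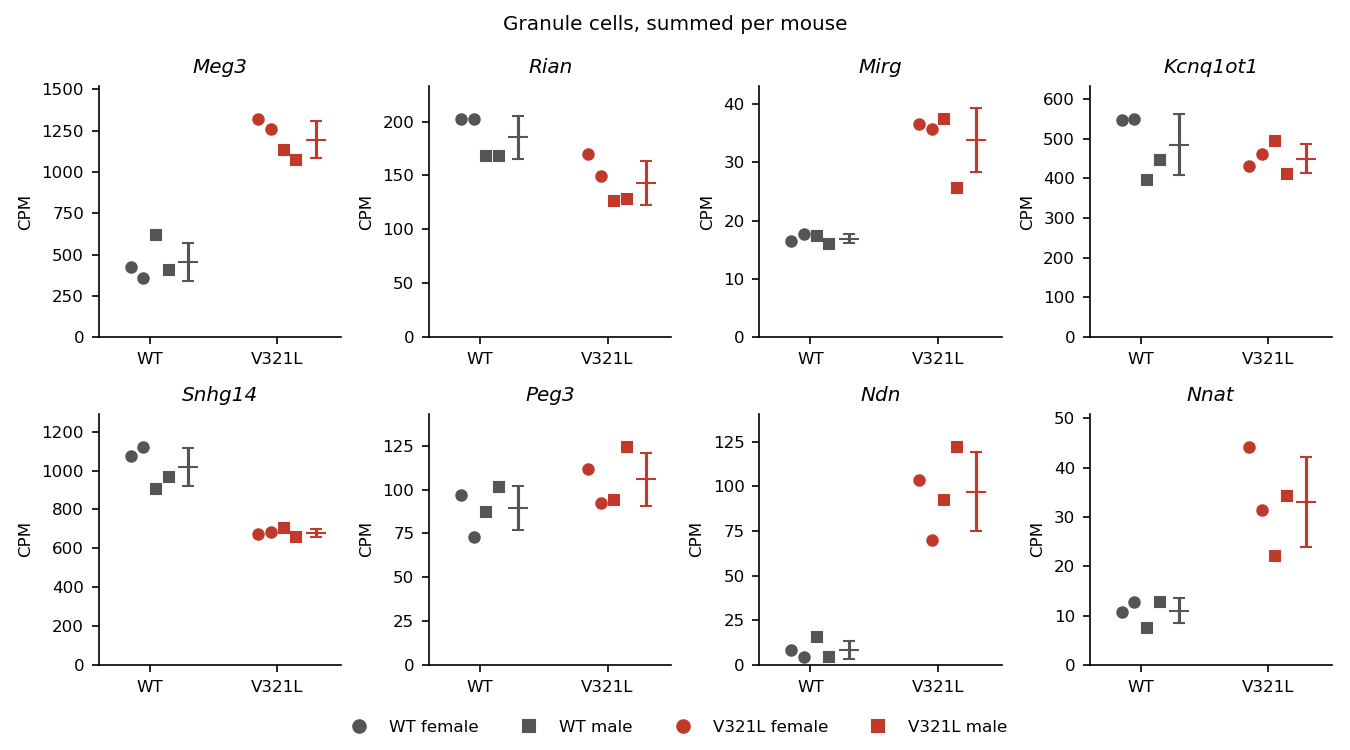
Level of each of the 8 genes in GCs by mouse, in CPM from 0, with 4 WT (grey) and 4 V321L (red) mice and the mean ± SD of each genotype. Meg3, Mirg, Ndn and Nnat are higher in all 4 V321L mice than in any WT mouse, Snhg14 is lower in all 4, and Rian, Kcnq1ot1 and Peg3 overlap. The share of all genes that separate in this way was not computed.

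In the Dlk1-Dio3 domain the 3 noncoding RNAs did not move together. Meg3 was at 426, 360, 619 and 406 CPM in GCs of WT mice F1, F2, M1 and M2, and at 1321, 1258, 1130 and 1073 CPM in V321L mice in the same order. The genotypes did not overlap, and the log2 fold change was 0.98 (SE 0.13, edgeR adjusted p = 1.3e-05). Rian was at 202, 203, 168 and 168 CPM in WT mice and at 169, 150, 126 and 128 CPM in V321L mice (log2 fold change -0.83, SE 0.14, edgeR adjusted p = 0.00012). Its ranges met in CPM, since V321L F1 lay just above the 2 WT males, a verdict that depends on the scaling. Mirg was at 16.6, 17.8, 17.4 and 16.1 CPM in WT mice and at 36.7, 35.8, 37.5 and 25.7 CPM in V321L mice (log2 fold change 0.55, SE 0.16, edgeR adjusted p = 0.0079). Meg3 and Mirg rose and Rian fell both with TMM scaling and with library sizes.

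A ratio of genes within a library does not depend on the scaling between libraries. In GCs 1.78 to 3.68 Meg3 UMIs were counted per Rian UMI in WT mice and 7.80 to 8.96 in V321L mice. The same ratio was 2.62 to 5.0 in WT and 8.96 to 10.9 in V321L GABAergic neurons, and 2.60 to 4.73 in WT and 8.83 to 12.2 in V321L other excitatory neurons. In all 3 neuronal classes the genotypes did not overlap. Free RNA held Rian at 132 to 163 CPM in WT and 31.5 to 50.8 CPM in V321L libraries. It held Meg3 at 330 to 486 CPM in WT and 255 to 404 CPM in V321L libraries. Meg3 relative to Rian was thus higher in V321L in free RNA too, and from which cells that RNA came was not tested. The share of gene pairs whose ratio separates the genotypes was not computed. Mirg per Rian UMI was 0.0819 to 0.103 in WT GCs and 0.201 to 0.297 in V321L GCs, while in GABAergic neurons WT M1, at 0.322 from 19 Mirg UMIs, lay within the V321L range. The ribosomal protein and mitochondrial RNA levels given above moved with these ratios, and their part was not tested. Rtl1, a retrotransposon-derived coding gene that is the neighbour of Meg3 and is read from the opposite parental copy, ranged from 4.99 to 7.06 CPM in WT and 2.72 to 3.65 CPM in V321L GCs, with a log2 fold change of -1.40 (SE 0.25, edgeR adjusted p = 0.00022). Rtl1 was rare in both genotypes, so the size of its change is uncertain.

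**Figure D3:**
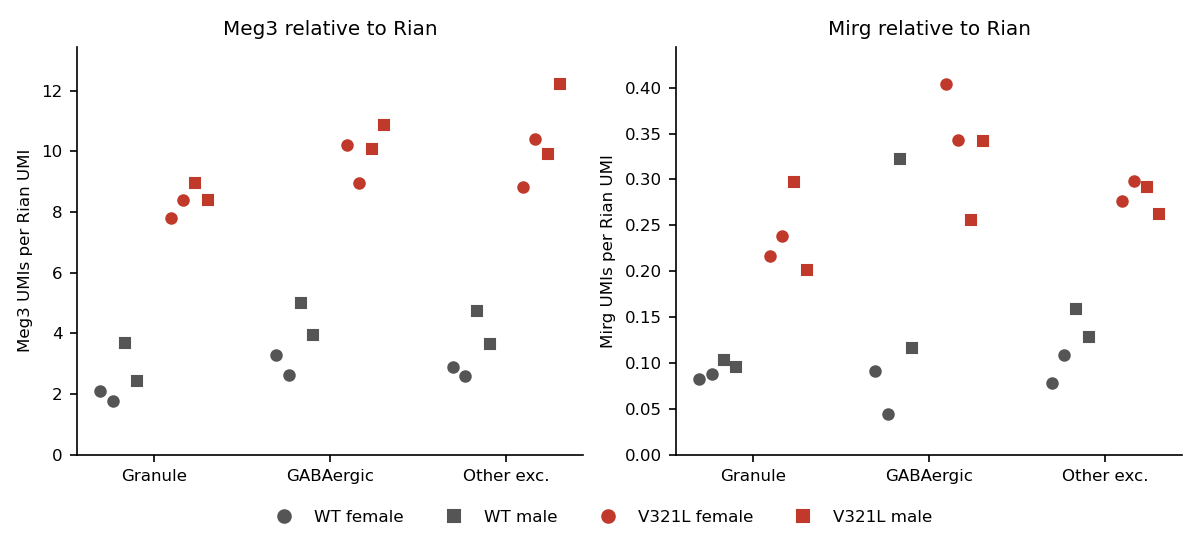
Number of Meg3 UMIs, and of Mirg UMIs, per Rian UMI in 3 neuronal classes, with 1 point per mouse (WT grey, V321L red). The Meg3 ratio lies between 1.78 and 3.68 in WT GCs and between 7.80 and 8.96 in V321L GCs, and does not overlap between the genotypes in any of the 3 classes.

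In the domain of Snhg14 and Ndn, Snhg14 and Ube3a fell, while Ndn and Snrpn rose. Snhg14 was at 1075, 1124, 906 and 969 CPM in WT GCs and at 672, 683, 707 and 660 CPM in V321L GCs, without overlap, with a log2 fold change of -1.04 (SE 0.13, edgeR adjusted p = 1.0e-05). Ube3a, the ubiquitin ligase gene that Snhg14 overlaps on the opposite strand, ranged from 820 to 1021 CPM in WT and 544 to 631 CPM in V321L GCs, with a log2 fold change of -1.13 (SE 0.13, edgeR adjusted p = 5.0e-06). The sources used here do not state whether counting used strand, so reads of these 2 overlapping genes, and of Kcnq1ot1 and Kcnq1, are uncertain in their assignment. Ndn was at 8.28, 4.71, 15.5 and 4.43 CPM in WT GCs and at 104, 69.8, 92.1 and 122 CPM in V321L GCs. All V321L mice lay far above all WT mice, and the log2 fold change of 3.29 (SE 0.27, edgeR adjusted p = 3.9e-07) was the largest among the members in GCs. Ndn also rose in free RNA, from 62.2 to 72.7 CPM in WT to 208 to 235 CPM in V321L libraries. Its direction in GCs was kept after an estimate of free RNA was subtracted from the counts. GCs of both genotypes held Ndn below the level of free RNA, so the subtraction lowers both and takes the WT values towards 0. It is therefore no check of the direction. How much of the Ndn count of either genotype was free RNA was not tested. Snrpn, which encodes a small nuclear ribonucleoprotein from the same domain, ranged from 39.3 to 61.4 CPM in WT and 129 to 224 CPM in V321L GCs, with a log2 fold change of 1.38 (SE 0.20, edgeR adjusted p = 3.0e-05).

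Kcnq1ot1 was at 546, 550, 396 and 447 CPM in WT GCs and at 431, 462, 495 and 410 CPM in V321L GCs. The ranges overlapped. Kcnq1ot1 fell by 0.57 on the log2 scale with TMM (SE 0.15, edgeR adjusted p = 0.0040), but the call was lost with library sizes (log2 fold change -0.11, edgeR adjusted p = 0.37), so the fall is relative to the other genes. Kcnq1, the potassium channel gene on the opposite strand, ranged from 6.20 to 6.82 CPM in WT and 0.524 to 1.36 CPM in V321L GCs, with a log2 fold change of -3.22 (SE 0.32, edgeR adjusted p = 1.4e-06). Kcnq1 passed the count filter only through the WT mice, and its V321L level lies near the floor.

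Peg3 was the member that did not pass the test in GCs. It was at 96.6, 72.9, 87.4 and 101 CPM in WT mice and at 112, 92.5, 94.3 and 125 CPM in V321L mice, with overlapping ranges. The log2 fold change was -0.20 with TMM (SE 0.13, edgeR adjusted p = 0.16) and 0.24 with library sizes (edgeR adjusted p = 0.12), so its direction turned with the scaling. Without WT M1, Peg3 passed with a log2 fold change of -0.31. In its domain, Usp29 ranged from 95.4 to 123 CPM in WT and 107 to 129 CPM in V321L GCs, with a log2 fold change of -0.31 (SE 0.10, edgeR adjusted p = 0.012) that turned to 0.13 with library sizes and was lost without V321L F1 (-0.26), and Zim1 had a value of 0.43 that did not pass (SE 0.37, edgeR adjusted p = 0.31).

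Nnat was at 10.7, 12.8, 7.44 and 12.7 CPM in WT GCs and at 44.3, 31.4, 22.0 and 34.2 CPM in V321L GCs. The genotypes did not overlap, and the log2 fold change was 1.06 (SE 0.23, edgeR adjusted p = 0.00095). Blcap, the gene within which Nnat lies, had a log2 fold change of 0.02 (SE 0.17, edgeR adjusted p = 0.90), and passed with library sizes at 0.47 (edgeR adjusted p = 0.033), below the median of 0.56 of all genes with that scaling.

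In the other neuronal classes 4 of 7 members tested passed, and they were the same 4 genes: Meg3, Mirg and Ndn higher and Snhg14 lower in V321L. In both classes Ndn passed the count filter only through the V321L mice. In WT mice it was at 12.2 to 57.7 CPM in GABAergic and 0 to 14.2 CPM in other excitatory neurons, so its fold changes are uncertain in size. The background was 31.3% of 3029 genes called in GABAergic neurons and 43% of 6265 genes in other excitatory neurons. In GABAergic neurons Meg3 was at 3218, 2416, 4257 and 3517 CPM in WT mice and at 7648, 7807, 8973 and 9221 CPM in V321L mice (log2 fold change 1.31, SE 0.17, edgeR adjusted p = 1.8e-05). The genotypes did not overlap. Mirg, Ndn and Snhg14 had log2 fold changes of 1.33 (SE 0.34), 2.31 (SE 0.41) and -0.55 (SE 0.17), the last with an edgeR adjusted p of 0.020 that was lost with library sizes. In other excitatory neurons the log2 fold changes were 1.19 for Meg3 (SE 0.20), 0.90 for Mirg (SE 0.26), 3.21 for Ndn (SE 0.55) and -0.76 for Snhg14 (SE 0.17). Rian, Kcnq1ot1 and Peg3 passed in neither class, with log2 fold changes between -0.41 and 0.18, and Nnat had too few counts to pass the edgeR filter in either. DESeq2, which tested all 8, called the same 4 members in each class and also Nnat in other excitatory neurons (log2 fold change 2.27, DESeq2 adjusted p = 0.0092), but not in GABAergic neurons (1.93, DESeq2 adjusted p = 0.18). In other excitatory neurons the Mirg call was lost without WT F1 (log2 fold change 0.74), Rian passed without V321L M1 (-0.54), and Nnat entered the test in 5 of 8 fits that left out a mouse and passed in those without WT F1, WT F2, WT M1 or V321L M1, with values between 1.91 and 2.65. After thinning every nucleus to 1000 UMIs, 1 member passed in GABAergic neurons, namely Meg3, and 2 in other excitatory neurons, namely Meg3 and Mirg. The share of all genes called at that depth is not set beside these counts, so they are not read as results about the members. Ndn was then too low to be tested.

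**Figure D4:**
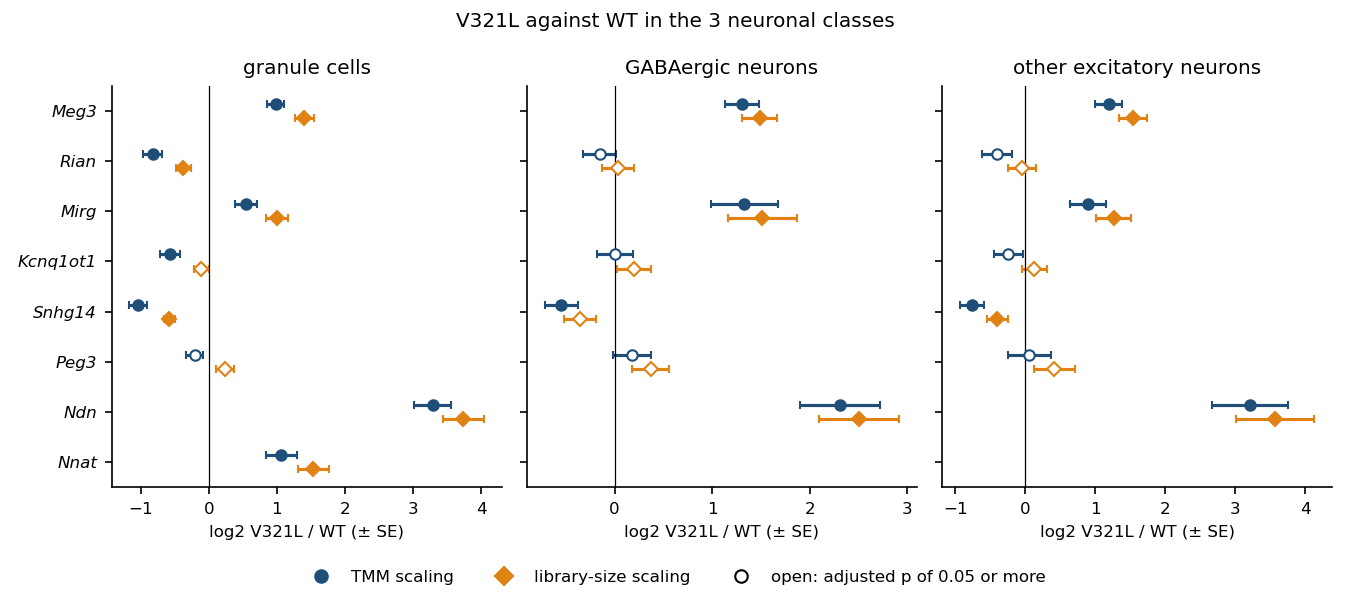
Log2 fold change of V321L over WT for each gene in the 3 neuronal classes, from edgeR with TMM (circles) and with library-size scaling (diamonds), with bars of 1 SE and filled symbols at an adjusted p under 0.05. With both scalings Meg3, Mirg and Ndn lie above 0 and Snhg14 below 0 in the 3 classes, while Peg3 in GCs moves from -0.20 to 0.24.

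Glia were read from fewer nuclei, 12 to 203 per mouse in oligodendrocytes and 16 to 173 in astrocytes and radial glia. In astrocytes and radial glia 5 members were tested and Nnat was called, against 35.8% of 2385 genes. Nnat was at 0, 21.3, 0 and 58.2 CPM in WT mice, from 0, 3, 0 and 5 UMIs, and at 782, 402, 435 and 478 CPM in V321L mice. No V321L mouse overlapped with WT, and the log2 fold change was 4.59 (SE 0.48, edgeR adjusted p = 2.9e-06). In OPCs, the precursors of oligodendrocytes, 3 members were tested and Nnat was again the one called, against 16.9% of 1011 genes. There it was at 0, 0 and 99.4 CPM in WT F1, F2 and M2 and at 482, 535, 567 and 652 CPM in V321L mice (log2 fold change 4.10, SE 0.59, edgeR adjusted p = 1.0e-04). WT M1 had 7 OPCs and was left out. In both classes Nnat passed the count filter only through the V321L mice, and its WT level lies at the floor. The size of these fold changes is therefore uncertain. Free RNA held Nnat at 28.3 to 57.0 CPM in WT and 67.1 to 133 CPM in V321L libraries, below the level in V321L astrocytes and radial glia and OPCs. Over all astrocytes and radial glia, the summed markers of GCs were at 2557 CPM in WT and 1185 CPM in V321L, those of oligodendrocytes at 144 and 386 CPM and those of vascular cells at 76.7 and 213 CPM. Their part in the Nnat difference was not tested.

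In oligodendrocytes 3 members were tested, against a background of 39.5% of 2049 genes, and Snhg14 was called. It was at 653, 417, 317 and 413 CPM in WT mice and at 13.2, 54.7, 100.3 and 163 CPM in V321L mice (log2 fold change -2.36, SE 0.51, edgeR adjusted p = 0.0032). The genotypes did not overlap, and when oligodendrocytes were taken from clusters Snhg14 was too low to be tested. In this class Snhg14 passed the count filter only through the WT mice, and the value of WT M1 rests on few UMIs. The size of the fold change is therefore uncertain. Other values moved with genotype in this class. Over all oligodendrocytes their own summed markers were at 15845 CPM in WT and 33163 CPM in V321L, those of GABAergic neurons at 3333 and 1734 CPM and those of immature granule cells at 172 and 29.4 CPM. The highest free-RNA estimate, 77.2%, was that of WT M1, and without that mouse Snhg14 was at -2.45 (edgeR adjusted p = 0.0033). Free RNA held Snhg14 at 358 to 400 CPM in WT and 44.7 to 73.4 CPM in V321L libraries, so it differed in the same direction. The part of the markers and of free RNA in the difference was not tested. In microglia 2 members were tested, Meg3 and Kcnq1ot1, and 0 were called by edgeR, 0 at an unadjusted p under 0.05 and 0 by DESeq2, against 15.7% of 1341 genes. The 3 WT mice tested had at most 16 microglia each.

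Whether the effect of genotype differed from that in GCs was tested as an interaction within mice. Among 32 tests of 8 members in 4 classes, 3 passed. The effect on Nnat was larger in astrocytes and radial glia by 3.37 on the log2 scale (SE 0.49, edgeR adjusted p = 1.4e-08), against a background of 1.41% of 10977 genes. The WT level of Nnat in astrocytes and radial glia lies at the floor, so the size of this difference is uncertain. In oligodendrocytes the effects on Meg3 and Snhg14 were lower by 1.67 (SE 0.47, edgeR adjusted p = 0.014) and 1.44 (SE 0.47, edgeR adjusted p = 0.048), against 4.38% of 10581 genes. The Nnat difference passed without any single mouse, whereas both oligodendrocyte differences passed together only without V321L M2. Both were lost without WT F2, V321L F1 or V321L F2, Meg3 also without WT M1 (-1.33), and Snhg14 also without WT F1 (-1.26), WT M2 (-1.39) or V321L M1 (-1.58). For GABAergic neurons and for other excitatory neurons 0 of 8 members passed by edgeR, with 2 and 3 at an unadjusted p under 0.05, and the backgrounds were 1.48% of 10374 and 1.34% of 10660 genes. Largest in size among these was Ndn in GABAergic neurons, with a difference of -1.18 (SE 0.56, edgeR adjusted p = 0.42).

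For sex, 0 of 8 members had a genotype effect in GCs that differed between females and males by edgeR, with 1 at an unadjusted p under 0.05, and 0 of 13196 genes were called, a background of 0%. The member with the lowest p was Kcnq1ot1, with a difference of 0.59 (SE 0.23, edgeR unadjusted p = 0.028, adjusted p = 0.996) from 2 mice per sex and genotype.

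The share of GCs with at least 1 UMI of a gene rises with depth, which was 1148 to 2063 UMIs per GC at the median in WT and 3271.5 to 4690.5 in V321L mice. At full depth a Meg3 UMI was found in 49.6% ± 4.4 of WT and 95.1% ± 0.72 of V321L GCs (SD, n = 4 each), and an Ndn UMI in 1.52% ± 0.60 and 30.3% ± 2.4. All members but 1 had a higher share in V321L without overlap (exact permutation test, two-sided, p = 0.0286, the smallest that 4 against 4 mice allow, adjusted p = 0.033). That 1 was Rian, at 27.3% and 38.6% (exact permutation p = 0.057). The proportion of all genes whose shares separate in this way was not computed, and V321L GCs are deeper. The count is therefore not read as a result about the members.

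Thinned to 1000 UMIs per nucleus, with 4797 of 6216 WT and 3964 of 4014 V321L GCs left, 5 members still differed without overlap. The proportion over all genes was not computed at this depth either. Meg3 was found in 32.9% ± 6.6 of WT and 67.2% ± 3.6 of V321L GCs, Mirg in 1.52% and 3.44%, Ndn in 1.0% and 9.82% and Nnat in 0.926% and 3.30%, each higher in V321L (exact permutation adjusted p = 0.046). Snhg14 turned, from 74.8% and 87.7% at full depth to 61.7% in WT and 48.1% in V321L GCs (exact permutation adjusted p = 0.046). Kcnq1ot1, at 35.6% and 33.8%, Rian, at 16.4% and 13.1%, and Peg3, at 8.01% and 10.1%, did not pass. For comparison, oligodendrocytes thinned in the same way held a Meg3 UMI in 11.6% of WT and 8.16% of V321L nuclei, and a Snhg14 UMI in 34.5% and 6.76%. Microglia at full depth, with a median of 686 to 847 UMIs in WT and 790 to 1112.5 in V321L mice, held a Meg3 UMI in 4.65% and 7.87% of nuclei. For Ndn, 0 of 50 WT oligodendrocytes thinned to 1000 UMIs held a UMI, which allows a share of up to 6.0%, and the share of V321L oligodendrocytes was 1.75% to 5.0% by mouse. At the same depth the Ndn share was 0.397% to 1.75% in WT GCs, under that limit, and 7.48% to 11.9% in V321L GCs, above the V321L oligodendrocytes in every mouse. The ± values are SDs over mice. The limit of 6.0% pools nuclei over WT mice and covers counting error only, not the spread between mice.

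**Figure D5:**
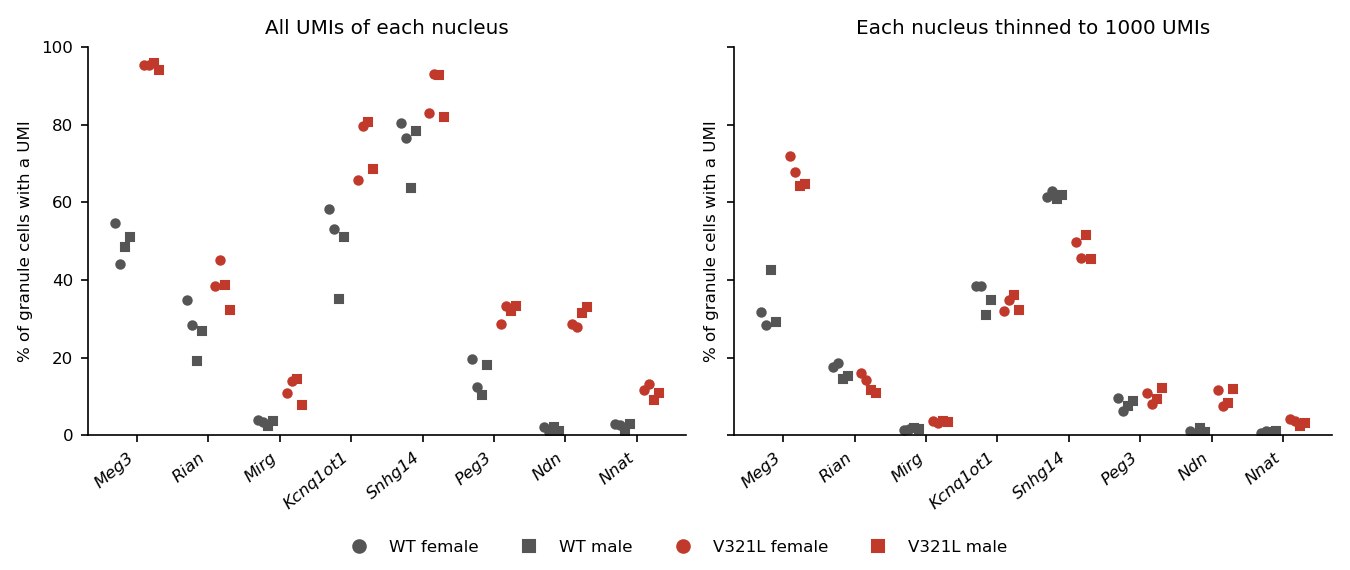
Share of GCs with at least 1 UMI of each gene, in percent, at full depth and after thinning to 1000 UMIs per nucleus, with 1 point per mouse (WT grey, V321L red). After thinning, Meg3, Mirg, Ndn and Nnat remain higher in V321L, Snhg14 is lower at 48.1% against 61.7%, and Rian, Kcnq1ot1 and Peg3 overlap.

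Among GCs, the study set apart those with Penk, the enkephalin precursor gene. Here a GC with at least 1 Penk UMI was taken as Penk+. There were 12 to 25 Penk+ GCs per WT mouse and 48 to 95 per V321L mouse. Such a number rises with depth, and V321L GCs are deeper, so the difference in number is not read as a result. With mouse as a block, 0 of the 8 members differed between Penk+ and Penk- GCs by edgeR, with 3 at an unadjusted p under 0.05, and 5.48% of 8739 genes were called. Meg3 was higher in Penk+ GCs in 8 of 8 mice, with means of 742 against 449 CPM in WT and 1602 against 1163 CPM in V321L mice and a log2 fold change of 0.31 (SE 0.16, edgeR adjusted p = 0.32). Rian was higher in 7 of 8 mice, at 290 against 184 CPM in WT and 194 against 139 CPM in V321L mice (log2 fold change 0.36, SE 0.15, edgeR adjusted p = 0.18). Penk+ GCs of WT mice were deeper, and when each was set against 5 Penk- GCs of like depth from the same mouse, Meg3 and Rian passed, with log2 fold changes of 0.49 (edgeR adjusted p = 5.1e-07) and 0.53 (edgeR adjusted p = 0.00032), against a background of 12.9% of 4080 genes. Both also passed in V321L mice alone, where 5.73% of 10818 genes were called, and not in WT mice alone.

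Accessibility was compared at the 4 promoter regions shown above. In GCs the region chr12:109540452-109541389 at the Meg3 start had 18.9, 25.9, 23.5 and 19.6 CPM of accessibility counts in WT mice and 28.8, 16.6, 17.1 and 29.1 CPM in V321L mice, and the ranges overlapped. At the Kcnq1ot1 start, chr7:143296177-143297152, the values were 42.1, 35.8, 37.1 and 40.7 CPM in WT and 33.1, 27.7, 31.9 and 30.4 CPM in V321L mice. These did not overlap, but the log2 fold change of -0.38 (SE 0.12) did not pass over all regions (edgeR adjusted p = 0.36). The Peg3 region chr7:6730102-6730984 had a log2 fold change of -0.20 (SE 0.12) and the Ndn region chr7:62347845-62348814 one of 0.29 (SE 0.22). The Ndn region held 8.29 to 11.1 CPM in WT and 9.40 to 14.4 CPM in V321L mice, overlapping ranges beside an RNA level that did not overlap. In all, 0 of 4 regions were called by edgeR, with 1 at an unadjusted p under 0.05, against 5 of 25566 regions or 0.0196%. Starts of Rian, Mirg and Snhg14 had no region called within 1 kb, and the regions at Nnat were called in some libraries only.

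Other imprinted genes were read from a list of 45, of which 44 had a row and 29 passed the filter in GCs. Of these, 8 were higher and 14 lower in V321L and 7 did not pass, beside the 70.4% of all genes called, 38.6% higher and 31.8% lower. The median of their log2 fold changes was -0.27, beside 0.11 for all tested genes. With library sizes 11 were higher and 5 lower, and the median was 0.18, beside 0.56 for all tested genes. The largest rises without overlap between genotypes were those of Tssc4 (4.07, SE 0.27), at 0.642 to 1.86 CPM in WT and 23.9 to 39.0 CPM in V321L GCs, of Mcts2 (2.32, SE 0.39), of the nucleosome assembly gene family member Nap1l5 (1.95, SE 0.16) and of Gnas (1.78, SE 0.17), which encodes a stimulatory G protein subunit. The largest falls without overlap were those of Kcnq1, Rtl1 and Ube3a, given above, and of the growth factor receptor adaptor Grb10 (-0.83, SE 0.11), at 41.9 to 57.1 CPM in WT and 35.1 to 39.0 CPM in V321L GCs. Tssc4 and Mcts2 passed the count filter only through V321L mice, and Kcnq1 only through WT mice. The size of their changes is therefore uncertain. The share of all genes without overlap was not computed.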

How the data were processed

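RNA and accessible chromatin were measured in the same nuclei of 8 DG samples, 1 library per mouse. The authors aligned and counted the reads with Cell Ranger ARC 2.0.2 (build mm10 per the submitters' processing notes, which also name Seurat and Signac), and the deposited matrices hold raw counts (UMIs per gene, and accessibility counts per peak called in each library) for all barcodes. Replicates are separate mice.

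Barcodes were kept with more than 500 UMIs, more than 250 genes and at least 500 accessibility counts, and within the upper limits on UMIs, genes and mitochondrial share of the study's methods. Doublets scoring over the library mean + 2 SD were removed (655 of 17015). A nucleus was given the class with at least 3 detected markers and a lead of 2 (other excitatory neurons 2 and 1). UMIs were summed per mouse and class (at least 10 nuclei) and fitted with edgeR 4.0.16 (quasi-likelihood, TMM, filterByExpr, calls at a Benjamini-Hochberg adjusted p under 0.05 over all genes tested). The WT male M1 had 7 OPCs and 2 microglia and was left out of both fits. The GC fit had 4 mice per genotype with no block. Levels between classes were compared by exact sign-flip tests on log2(CPM + 1), and shares by exact permutation tests. Accessibility counts were summed over regions with a peak in every library, and a promoter region overlapped a start site ± 1 kb. The free RNA profile came from barcodes of up to 100 UMIs, and the free share from the scarcest foreign marker list, a rule set after first values had been seen. The edgeR scripts were tested on simulated data. Named genes were the 8 members, the 4 largest non-overlapping rises and falls of the imprinted list, its genes in members' domains, the 3 genes most alike each member (at least 50 CPM in a class) and Nrg1.

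The members, marker lists and imprinted list were chosen with earlier results of these data known. Depth was between 4326426 and 23582057 UMIs per library. Alternatives were library sizes, DESeq2 1.42.0, a replicate block, thinning, Leiden clusters (leidenalg 0.10.2), filters and leaving out each mouse. Tools were Python 3.11.15, scipy 1.17.1 and R 4.3.3. Same-numbered WT and V321L samples had correlations of their deviations of 0.043, 0.283, -0.117 and 0.048 over 12328 genes, so the numbers do not pair the samples.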

Additional observations from a re-analysis of the deposited data

Results flagged for a closer look

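In 96 groups of 4 mice (each member by class and genotype) 5 single mice lay far from the other 3, and chance alone gives about 1 in 20 such groups. In GCs, Mirg in V321L M2 was at 25.7 CPM, against 35.8 to 37.5 CPM in the other V321L mice. WT M1, the shallowest library, was the mouse apart in 3 cases: Ndn in GABAergic neurons was at 57.7 CPM against 12.2 to 17.4 CPM, Meg3 in astrocytes and radial glia at 607 CPM against 0 to 93.1 CPM, and Nnat in oligodendrocytes at 158 CPM, from 2 UMIs, against 0 to 24.2 CPM. Snhg14 in microglia of V321L M2 was at 309 CPM against 9.66 to 59.7 CPM.

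The effect of genotype differed between cell classes, by the interaction test, in 3 cases. The log2 fold change of Nnat was 3.37 larger in astrocytes and radial glia, where its WT level lies at the floor, than in GCs. That of Meg3 differed by -1.67 and that of Snhg14 by -1.44 between oligodendrocytes and GCs, and both were lost without WT F2, V321L F1 or V321L F2. Without WT M1 the Meg3 difference was lost (-1.33), and the Snhg14 difference was lost without WT F1 (-1.26), WT M2 (-1.39) or V321L M1 (-1.58).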

How the results depend on the processing

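The share of all genes called under each alternative is not set beside the counts in this paragraph, and it was 70.4% in the main GC fit. These counts are therefore not read as results about the members. In GCs 7 members were called under every alternative to scaling, depth, filters, clusters and free RNA tried, except library sizes, where 6 were called and Kcnq1ot1 was lost. Among other imprinted genes 22 were called (8 higher, 14 lower), and 16 with library sizes (11 higher, 5 lower). Library depth, ribosomal protein and mitochondrial RNA separate the genotypes fully, and no alternative removes that. Sums over glia rest on few UMIs in WT mice. Microglia thinned to 1000 UMIs were not run, since no WT mouse kept 10 nuclei. Causes of the changes below were not tested. Numbers did not pair the samples, and with a replicate block 7 members were called in GCs and the block changed no call count in any class.

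Counts of called members moved in these cases. The share of all genes called is given above for depth-matched Penk nuclei and for V321L mice alone, and not for the other fits here or below. Counts from those other fits are not read as results about the members. Thinned to 1000 UMIs, 1 was called in GABAergic neurons and 2 in other excitatory neurons. With Leiden clusters, 0 were called in oligodendrocytes and 3 in OPCs. Between Penk+ and Penk- GCs, 2 were called higher in Penk+ with depth-matched nuclei and 2 in V321L mice alone (Meg3 and Rian in both), whereas 3 were called lower with no filter on low counts (Kcnq1ot1, Snhg14 and Nnat).

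Leaving out each mouse in turn gave 1 to 2 called members in OPCs, the second being Meg3 without WT F2 and Snhg14 without WT M2. Penk+ against Penk- GCs gave 0 to 1, namely Rian without WT F2 and Meg3 without V321L M1. Differences between classes gave 1 to 3 calls, which always held Nnat. Level differences against GCs gave 19 to 32 calls, since 7 mice or fewer raise the smallest p, and 19 came without WT F2, WT M2, V321L F1, F2 or M1. These leave-one-out fits for the differences between classes and the levels were added after seeing the data.

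Some uncalled log2 fold changes between genotypes changed sign. With library sizes Peg3 (0.24) and Usp29 (0.13) did so in GCs, Rian in GABAergic neurons (0.036) and Kcnq1ot1 in other excitatory neurons (0.13), and with free RNA subtracted Peg3 in GCs (0.22). With DESeq2 Blcap in GCs was at -0.013 and Kcnq1ot1 in GABAergic neurons at -0.15. Thinned, Blcap in GCs was at -0.019, Rian at 0.0094 in GABAergic and 0.18 in other excitatory neurons, and Kcnq1ot1 at 0.22 in other excitatory neurons and 1.41 in OPCs. With clusters Kcnq1ot1 was at 0.20 in OPCs and -0.63 in microglia. With the replicate block Kcnq1ot1 was at -0.0035 in GABAergic neurons and Peg3 at -0.068 in other excitatory neurons. Of these, Usp29 was called with TMM.

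Between Penk+ and Penk- GCs, Snhg14 was at 0.073 with depth-matched nuclei and 0.052 in V321L mice alone, Peg3 at -0.18 in WT mice alone and -0.25 with no filter, and Ndn at -0.0061 in V321L mice alone and -0.33 with no filter. For levels against GCs, Nnat in GABAergic neurons was at 0.0064 with a pseudocount of 10 and 0.87 less free RNA, Nnat in oligodendrocytes at -1.71 with clusters, and Kcnq1ot1 and Ndn in other excitatory neurons at -0.036 and 0.47 less free RNA. Differences in share (percentage points) turned to -3.30 and -2.64 for Rian, -1.82 and -0.384 for Kcnq1ot1 and -13.6 and -9.45 for Snhg14 at 1000 and 500 UMIs.

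Signs also turned without single mice. Between genotypes, the ranges over mice left out were -0.15 to 0.13 for Blcap in GCs, -0.093 to 0.048 for Kcnq1ot1 in GABAergic neurons, -0.34 to 0.23 for Peg3 in other excitatory neurons and -0.092 to 0.79 in astrocytes and radial glia. They were -0.90 to 0.35 for Meg3 in oligodendrocytes, -0.49 to 2.31 for Meg3 and -0.76 to 0.21 for Kcnq1ot1 in OPCs, and -0.0022 to 0.93 for Kcnq1ot1 in microglia. For Penk they were -0.15 to 0.027 for Snhg14, -0.15 to 0.24 for Peg3 and -0.10 to 0.12 for Ndn. For levels against GCs, Nnat ranged from -0.23 to 0.11 in GABAergic neurons, -0.14 to 0.21 in other excitatory neurons and -0.40 to 0.75 in oligodendrocytes, and Kcnq1ot1 from -0.28 to 0.086 in OPCs.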
